A study of Neotoma lepida with 16 samples.

Results

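ATP-binding cassette (ABC) transporter genes were taken as every gene whose symbol on the array begins with Abca, Abcb, Abcc, Abcd, Abce, Abcf or Abcg, whatever its values. This gave 46 genes with 58 probes, out of 35561 genes or transcripts with 41012 probes. Of the 46, 38 passed the filter on dim probes and were tested, among 26486 genes tested in all. Their RNA was measured in the liver of 16 wild-caught desert woodrats (Neotoma lepida), of which 8 came from a Great Basin population and 8 from a Mojave population. Within each population, 4 animals were fed creosote bush and 4 were fed juniper, mixed into rabbit chow in rising amounts over 5 days. All animals had first lived in captivity on that chow for 3 months. The 4 groups are therefore Great Basin creosote, Great Basin juniper, Mojave creosote and Mojave juniper, with 1 array per animal. Mojave creosote consisted of 4 males, and the remaining groups had 2 of each sex. The ages of the animals are not given in the sources used here. No group stayed on chow alone, so "higher" and "lower" below set creosote against juniper, and a rise on one plant cannot be told apart from a fall on the other. The crossed design allows the diets to be compared within a population and the populations on a diet.

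ABC proteins bind ATP and use its hydrolysis to move molecules across membranes. In the liver, the hepatocyte places a set of them on the bile canaliculus, the narrow channel between hepatocytes into which bile is secreted: they export bile salts (Abcb11), phosphatidylcholine (Abcb4), glutathione and glucuronide conjugates (Abcc2), drugs (Abcb1, Abcg2) and sterols (the pair Abcg5 and Abcg8). Others on the blood-facing membrane return conjugates to the circulation, and others serve cholesterol export, the mitochondrion and the peroxisome. The E and F subfamilies have the ATP-binding cassettes without any membrane part and act on ribosomes and translation.

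Each value below is the log2 ratio of an animal's signal to that of a pool of all 16 livers on the same array, so 0 is the level of the pool. The ratios hold no information on how abundant one gene is against another. Differences between groups are log2 differences fitted with a sex term by limma, given as estimate ± standard error (SE). They can depart from the difference of the printed animal values where the all-male Mojave creosote group enters. For some genes this departure is not small. A gene is called changed when its adjusted p is below 0.05 over all 26486 genes. The probes are rat sequences, and how well each matches the woodrat transcript is not known here.

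The share of probe spots above background in the animal channel ran from 46.4% to 76.2% over the 16 arrays. The 4 arrays of slide 1, 1 animal of each group, were the dimmest, at 49.2% on average against 66.0%, 70.4% and 71.7% on the other slides. Each group kept 1 array position on all 4 slides: Great Basin creosote 1, Mojave creosote 2, Mojave juniper 3 and Great Basin juniper 4. Diet, population and their interaction therefore cannot be told apart from position. Hepatocyte marker genes moved with diet. Of 12 on the array 10 were tested, and 4 were called higher on creosote in Great Basin and 5 in Mojave, with none lower. Of all genes tested, 2.08% were called higher in Great Basin and 3.83% in Mojave. The mean log2 ratio of the 10 markers lay between 0.55 and 0.80 in Great Basin creosote and between -0.07 and 0.01 in Great Basin juniper. It lay between 0.36 and 0.64 in Mojave creosote and between -0.10 and 0.07 in Mojave juniper. The remaining 2 hepatocyte markers, Apoa1 and Tf, were not above background on any array. Markers of Kupffer cells, stellate cells, endothelium, bile duct, blood cells and pancreas or intestine gave at most 1 call per list in either population. Averaged over populations, 2 of 8 stellate cell markers were higher on creosote, beside 5.72% of all genes. They were Rgs5 (0.94) and Pdgfrb (0.68). The mean of those 8 did not overlap between diets in Mojave, at 0.10 to 0.32 on creosote and -0.28 to -0.04 on juniper, and overlapped in Great Basin. The mean of 8 pancreas and intestine markers did not overlap in Great Basin, at -0.08 to -0.04 on creosote and -0.03 to 0.09 on juniper. The part of these marker shifts in the diet differences below was not tested, and in whole liver fewer cells of a type and less RNA per cell cannot be told apart.

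Of the 46 genes, 8 were not tested. Abca5, Abca6, Abca9, Abca15, Abca17, Abcc9 and the drug and urate exporter Abcg2 were above background on 0 of 16 arrays, and Abcc8 on 3. Abcc8 and Abcc9 are regulatory subunits of potassium channels. A rat probe that stays dark in woodrat RNA gives only a bound, so these genes have no diet or population comparison. Of the 38 tested, 27 were above background on all 16 arrays and 11 were not. The dimmest of the tested genes were Abcb8 (4 arrays), Abcg3 (5), Abcb1a (6), Abcc12 (7) and Abca8b (7).

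The diet comparisons gave 10 ABC genes that changed in at least 1 of them. The share of all genes called in at least 1 was not counted, so this 10 has no background beside it. In Great Basin animals 3 of 38 were called (1 higher on creosote, 2 lower), beside 4.03% of all genes tested. The background was 2.08% higher and 1.95% lower, and the share of all calls that were higher was 51.7%, or 38.9% when the animal channel was analysed alone. In Mojave animals 7 of 38 were called (1 higher, 6 lower), beside 9.56% of all genes, of which 3.83% higher and 5.73% lower. Averaged over the populations 7 of 38 were called (2 higher, 5 lower), beside 12.1% of all genes, of which 5.72% higher and 6.38% lower. The same shares of all genes stand beside each count of called genes by role or list below. The creosote and juniper animals did not overlap in 4 of 38 genes in Great Basin, which is 10.5% and equal to the 10.5% of all genes. They did not overlap in 11 of 38 in Mojave, beside 16.7% of all genes. The median log2 diet difference of the 38 was -0.04 in Great Basin and -0.03 in Mojave, against -0.01 and 0 over all genes. The intervals of 36 of them are shown together in the plot of diet differences by role.

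**Figure D1:**
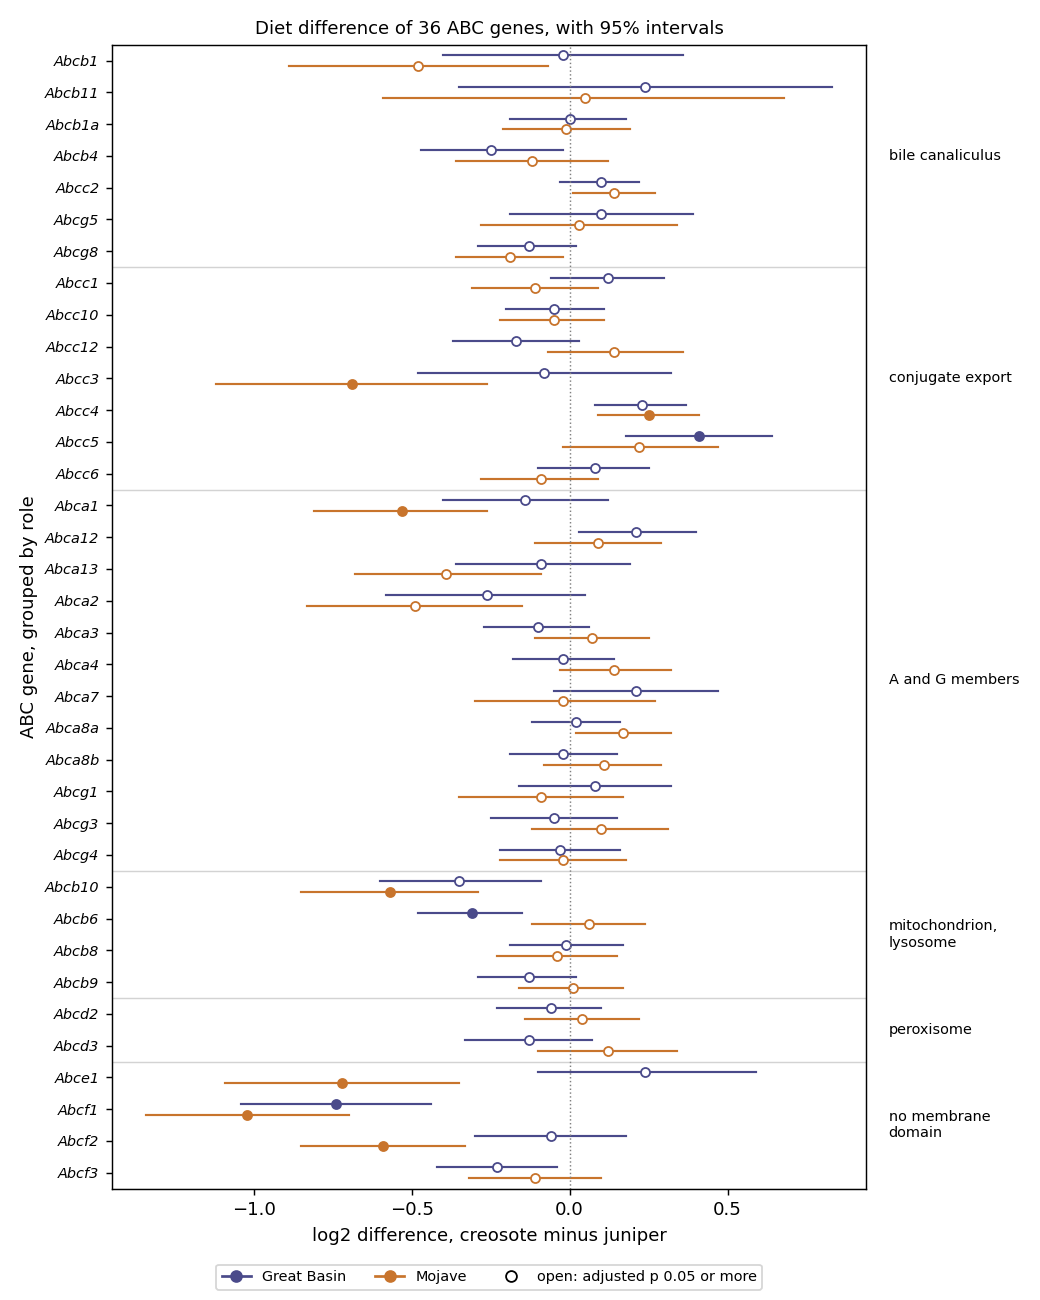
Diet difference (log2, creosote minus juniper, x axis) of 36 of the 38 tested ABC genes grouped by role (y axis), with 95% intervals from limma, in Great Basin (blue) and Mojave (orange). Filled points have an adjusted p below 0.05. They number 3 in Great Basin and 7 in Mojave, and Abcf1 is filled in both.

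Among the genes without a membrane domain, 3 of 4 were lower on creosote in Mojave and 1 of 4 in Great Basin. The shares of all genes called lower were 5.73% and 1.95%. Abcf1, which binds initiation factor eIF2 and ribosomes and stimulates translation initiation, had the largest diet difference of the 38 in both populations. Its log2 ratios in Great Basin were -0.95, -0.63, -0.76 and -1.05 on creosote and -0.21, -0.13, 0.02 and -0.12 on juniper. Mojave animals read -1.37, -0.59, -0.84 and -0.67 on creosote and -0.03, 0.21, 0.15 and 0.17 on juniper. Every creosote animal lay below every juniper animal, within each population and across both. Abcf1 fell by 0.74 ± 0.14 in Great Basin (SE, n = 4 per group, limma adjusted p = 0.00738, 1.67-fold) and by 1.02 ± 0.15 in Mojave (adjusted p = 0.000974, 2.03-fold). On each of the 4 slides the creosote animal was below the juniper animal, by -0.97 to -0.51 in Great Basin and -1.34 to -0.81 in Mojave. A second Abcf1 probe showed differences of -0.67 ± 0.09 and -0.83 ± 0.10. The Great Basin call did not hold with the scanner's processed signals (-0.70, adjusted p = 0.0685), in males alone (-0.74, adjusted p = 0.23) or without slide 1 (-0.66, adjusted p = 0.125). The Mojave and averaged calls held under all 28 alternatives.

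Abce1 splits the ribosome into its subunits after termination, which recycles it. Its ratios were 0.08, -0.29, 0.18 and -0.14 in Great Basin creosote and -0.29, -0.49, -0.33 and -0.05 in Great Basin juniper, which overlapped. In Mojave they were -0.10, -0.93, -0.63 and -0.46 on creosote and 0.02, 0.08, 0.45 and 0.41 on juniper, without overlap. Abce1 fell by 0.72 ± 0.17 in Mojave (limma adjusted p = 0.0164, 1.65-fold). In Great Basin the difference was 0.24, the other way, and was not called. On the slides it was 0.14 to 0.40 in Great Basin, above 0 on 4 of 4, and -1.07 to -0.12 in Mojave, below 0 on 4 of 4. The difference between these diet effects was -0.96 ± 0.24, the largest of the 38, with an unadjusted p of 0.000997 and an adjusted p of 0.109. The Mojave call was kept without each animal in turn and lost with processed signals (adjusted p = 0.0507), in males alone (-0.58, adjusted p = 0.16) and without slide 1 (-0.63, adjusted p = 0.114).

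Abcf2, a cytosolic relative of Abcf1, had ratios of -0.33, -0.12, -0.05 and -0.56 in Great Basin creosote and -0.28, -0.27, -0.19 and -0.07 in Great Basin juniper. The Mojave ratios were -0.82, -0.55, -0.45 and -0.39 on creosote and -0.10, 0.04, 0.11 and -0.02 on juniper. The Great Basin groups overlapped and the Mojave groups did not. Abcf2 fell by 0.59 ± 0.12 in Mojave (limma adjusted p = 0.00669, 1.5-fold) and differed by -0.06 ± 0.11 in Great Basin. The Mojave call was kept without each animal, and the adjusted p was 0.0641 with processed signals, 0.0522 in the animal channel alone and 0.0515 in males. Averaged over populations Abcf2 fell by 0.33 (adjusted p = 0.0175), a call lost without Great Basin juniper 4 (adjusted p = 0.0533), with processed signals (0.0827), in males alone (0.114) and without slide 1 (0.0828). Abcf3 was not called, at -0.23 in Great Basin and -0.11 in Mojave. Of 6 other genes of ribosome recycling and termination, 0 were called in either population by limma, and averaged over populations Gspt1 was lower (-0.22, adjusted p = 0.0395) and Mcts1 higher (0.27, adjusted p = 0.0433).

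**Figure D2:**
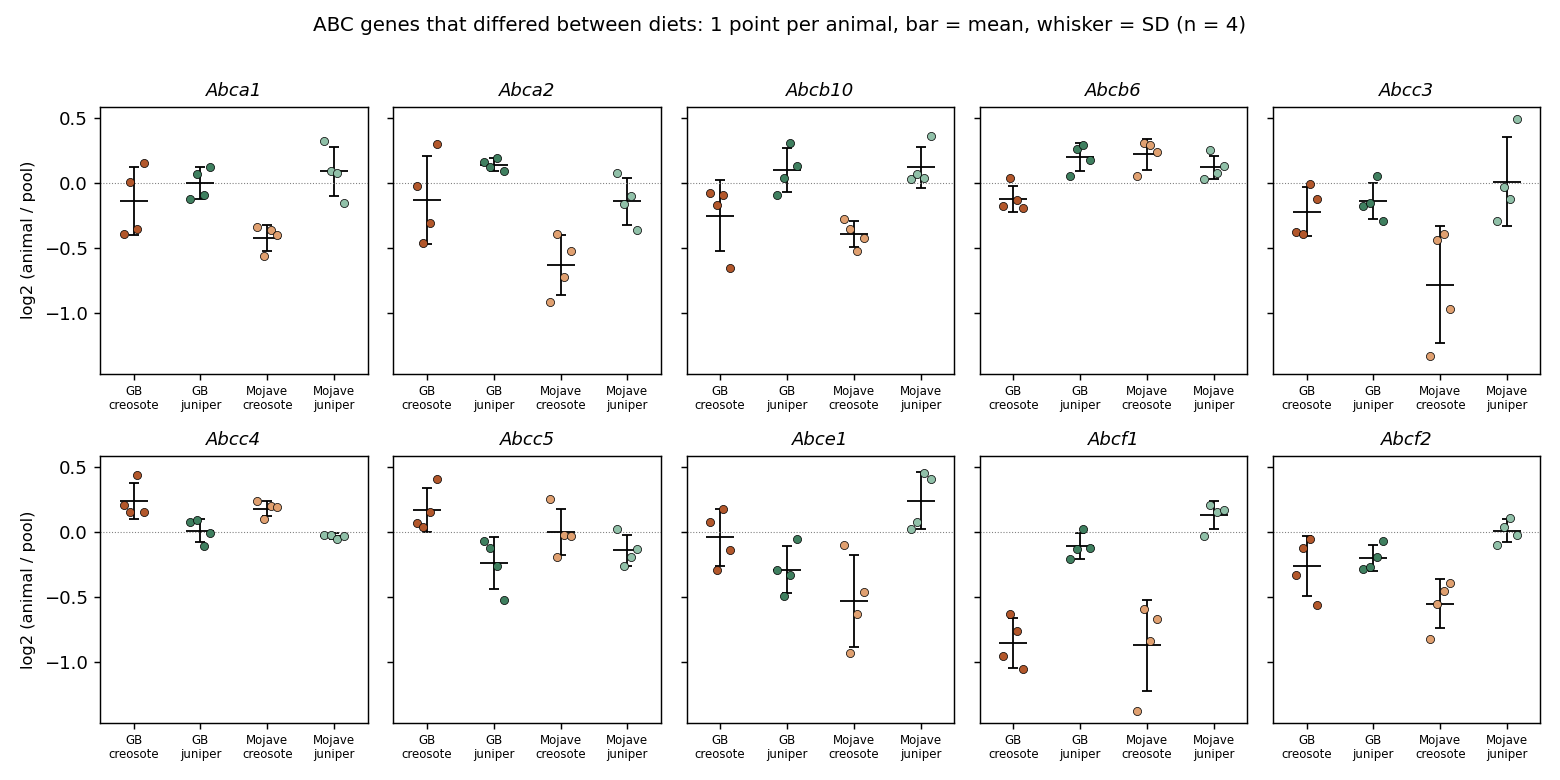
log2 ratio of animal to pool (y axis) for the 10 ABC genes called in a diet comparison, by group (x axis; GB is Great Basin), 1 point per animal, with the mean and SD of 4 animals. In the Abcf1 panel all creosote points lie below all juniper points, and in the Abce1 panel the juniper group is the lower one in Great Basin and the higher one in Mojave.

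The conjugate exporters on the blood-facing and other plasma membranes moved in both directions. In Great Basin 1 of 7 was higher on creosote, and in Mojave 1 was higher and 1 lower. Abcc3 (Mrp3) carries glucuronides and bile salts back to the blood. Its ratios were -0.38, -0.39, -0.01 and -0.12 in Great Basin creosote and -0.18, -0.15, 0.05 and -0.29 in Great Basin juniper. In Mojave they were -1.33, -0.44, -0.39 and -0.97 on creosote and -0.29, -0.03, -0.12 and 0.49 on juniper. The Mojave groups did not overlap, and their creosote animals spread widely. Abcc3 fell by 0.69 ± 0.20 in Mojave (limma adjusted p = 0.0435, 1.61-fold), with slide differences of -1.47 to -0.26, and differed by -0.08 ± 0.19 in Great Basin. The interaction was -0.61 ± 0.28 (adjusted p = 0.365), and -0.29 ± 0.32 at a further Abcc3 probe. The Mojave call was kept only when Great Basin creosote 3, Mojave creosote 2 or 3, or Mojave juniper 3 was left out. Leaving out any of the other 12 animals gave adjusted p values up to 0.131, with differences between -0.82 and -0.51 over all 16. It was lost as well with processed signals (adjusted p = 0.132), the deposited ratios (0.092), the animal channel alone (0.116), males alone (0.21) and slide as a block (0.0561).

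Abcc4 (Mrp4), another basolateral exporter of bile salts and conjugates, went the other way. Its ratios were 0.21, 0.15, 0.44 and 0.15 in Great Basin creosote and 0.08, 0.09, -0.11 and -0.01 in Great Basin juniper. For Mojave the ratios were 0.24, 0.10, 0.20 and 0.19 on creosote and -0.02, -0.02, -0.05 and -0.03 on juniper. The diets did not overlap in either population. Abcc4 rose by 0.25 ± 0.07 in Mojave (limma adjusted p = 0.0448, 1.19-fold) and by 0.24 ± 0.05 averaged over populations (adjusted p = 0.00532), and was 0.23 ± 0.07 higher in Great Basin without passing the test (adjusted p = 0.0783). The Mojave difference was 0.35 with an offset of 16 (adjusted p = 0.0681) and 0.56 in the processed signals and in the deposited ratios. The Mojave call was kept only without Great Basin creosote 3 or 4 or Mojave creosote 2 and was lost without any of the other 13 animals (adjusted p up to 0.102). It was lost under 8 of 12 other alternatives (up to 0.206), among them the replicate number as a block (0.0713). The averaged call was kept without each animal and lost in the animal channel alone (0.15, adjusted p = 0.182), in males alone (adjusted p = 0.0696) and without slide 1 (adjusted p = 0.067).

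Abcc5 (Mrp5), which exports cyclic nucleotides and is widely expressed, had ratios of 0.07, 0.04, 0.15 and 0.41 in Great Basin creosote and -0.07, -0.12, -0.26 and -0.52 in Great Basin juniper. In Mojave they were 0.25, -0.19, -0.02 and -0.03 on creosote and 0.02, -0.26, -0.19 and -0.13 on juniper. The diets did not overlap in Great Basin and overlapped in Mojave. Abcc5 rose by 0.41 ± 0.11 in Great Basin (limma adjusted p = 0.042, 1.33-fold) and by 0.32 ± 0.08 averaged over populations (adjusted p = 0.0145), and the Mojave difference was 0.22 ± 0.11 (adjusted p = 0.275). On the slides the creosote animal was higher on 4 of 4 in each population, by 0.15 to 0.67 and 0.06 to 0.23. The Great Basin call was kept only when Mojave creosote 1 or 2 or Mojave juniper 1 or 3 was left out, and the other 12 gave adjusted p values up to 0.143. Of 12 other alternatives, 6 ended it (adjusted p up to 0.287). The averaged call was kept without each animal in turn and lost in males alone (adjusted p = 0.171) and without slide 1 (adjusted p = 0.0742).

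The other 4 genes of this role were not called. The glutathione conjugate exporter Abcc1 differed by 0.12 ± 0.09 in Great Basin and -0.11 ± 0.09 in Mojave. Abcc6 differed by 0.08 and -0.09, and Abcc10 by -0.05 in both populations. Abcc12 differed by -0.17 and 0.14 and was above background on 7 arrays, with none of them in Great Basin creosote. Over those 4 animals it has only a bound. Great Basin juniper, measured on 2 of 4 arrays, was 1.19-fold above that bound in the animal channel. This ratio carries no error and is not a lower limit on the difference. The limma interval of the Great Basin difference was -0.37 to 0.03, which includes 0 (adjusted p = 0.393).

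None of the 7 tested canalicular genes passed the test in any comparison by limma. The canalicular values of each animal are shown in the plot by group. The bile salt pump Abcb11 had the widest range of animals among them. Its ratios were -0.06, 0.21, -0.23 and -0.70 in Great Basin creosote, -0.48, -0.76, -0.42 and -0.08 in Great Basin juniper, -0.55, -0.32, 0.70 and -0.36 in Mojave creosote, and -0.71, -0.35, -0.23 and 0.38 in Mojave juniper. All 4 groups overlapped. Its diet difference was 0.24 in Great Basin with a 95% interval of -0.35 to 0.83, and 0.05 in Mojave with an interval of -0.59 to 0.68. A second Abcb11 probe gave 0.10 ± 0.08 and 0.04 ± 0.09.

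Abcc2 (Mrp2), the canalicular exporter of conjugates, had much tighter values. Its probe has 10 spots on the array, which were averaged, against 1 spot for Abcb11. The spreads of these genes are therefore not directly comparable. The Abcc2 values were 0.09, 0.07, -0.01 and 0.14 in Great Basin creosote and -0.03, -0.03, 0.01 and -0.04 in Great Basin juniper. Those of Mojave animals were 0.21, 0.18, 0.03 and 0.08 on creosote and -0.01, -0.02, -0.05 and 0.01 on juniper. The diets overlapped in Great Basin and not in Mojave, and the creosote animal was the higher one on 4 of 4 slides in each. The diet difference was 0.10 (95% interval -0.03 to 0.22) in Great Basin and 0.14 (0.01 to 0.27) in Mojave, with adjusted p values of 0.434 and 0.205.

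The phosphatidylcholine floppase Abcb4 differed by -0.25 ± 0.10 in Great Basin (adjusted p = 0.234) and -0.12 ± 0.11 in Mojave. Abcb1, a P-glycoprotein gene that exports drugs, had ratios of -0.36, -0.72, -0.48 and -0.49 in Mojave creosote and -0.36, -0.01, -0.05 and 0.28 in Mojave juniper, which share the value -0.36. Its difference there was -0.48 ± 0.19 (adjusted p = 0.15), against -0.02 ± 0.18 in Great Basin. The other P-glycoprotein gene, Abcb1a, was above background on 6 arrays and differed by 0 and -0.01. Abcb1, Abcb1a and Abcb4 are close relatives, and whether their rat probes separate the woodrat transcripts is not known here. The sterol pair Abcg5 and Abcg8 differed by diet by 0.10 ± 0.13 and -0.13 ± 0.07 in Great Basin and by 0.03 ± 0.14 and -0.19 ± 0.08 in Mojave. None of these was called. Averaged over populations Abcg8 differed by -0.16 (adjusted p = 0.0712), and passed without the sex term (-0.19, adjusted p = 0.0339) and without Great Basin creosote 2 (adjusted p = 0.0492) or Mojave creosote 3 (adjusted p = 0.0472). A further Abcg8 probe, above background on 11 arrays, did not show this difference. It gave 0.02 ± 0.07 averaged over populations, -0.03 ± 0.09 in Great Basin and 0.08 ± 0.10 in Mojave.

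**Figure D3:**
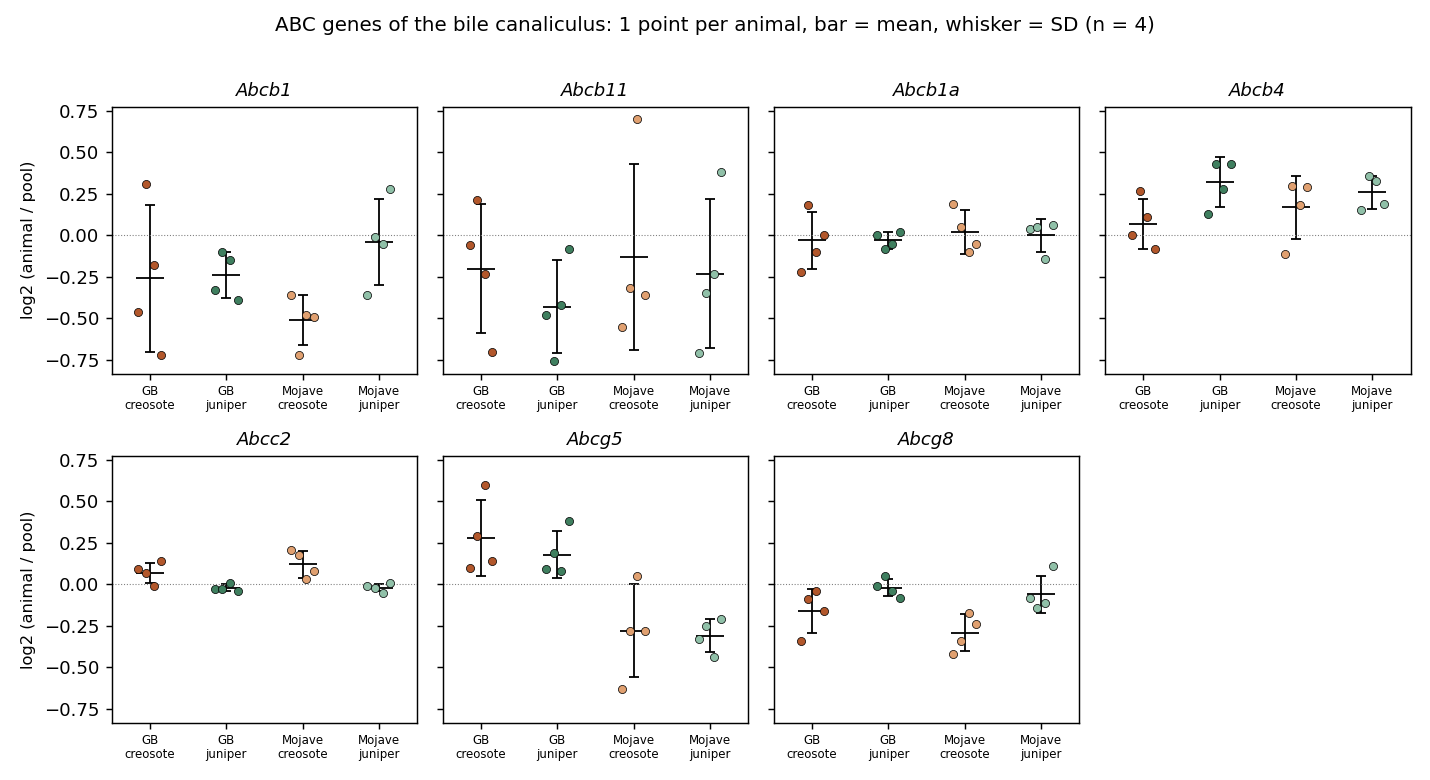
log2 ratio of animal to pool (y axis) for the 7 tested genes of the bile canaliculus, by group (x axis; GB is Great Basin), 1 point per animal with the mean and SD of 4 animals. The Abcb11 groups overlap throughout, the Abcc2 points lie between -0.05 and 0.21, and the Abcg5 points of Mojave animals lie below those of Great Basin animals on the same diet.

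Among the A and G members that serve cellular sterol and phospholipid export and other tissues, 1 of 12 was called in Mojave and 0 in Great Basin. Abca1 loads cholesterol and phospholipid onto apolipoprotein A-I to form HDL. Its ratios were -0.39, 0.01, -0.35 and 0.15 in Great Basin creosote and -0.12, 0.07, -0.09 and 0.12 in Great Basin juniper. In Mojave they were -0.34, -0.56, -0.36 and -0.40 on creosote and 0.32, 0.09, 0.08 and -0.15 on juniper. The Great Basin groups overlapped and the Mojave groups did not. Abca1 fell by 0.53 ± 0.13 in Mojave (limma adjusted p = 0.0174, 1.45-fold), on 4 of 4 slides (-0.66 to -0.25). In Great Basin it differed by -0.14 ± 0.12, and the interaction was -0.39 ± 0.18 (adjusted p = 0.364). The Mojave call was lost without Mojave juniper 1 (-0.43, adjusted p = 0.095) or 2 (-0.55, adjusted p = 0.0507), with processed signals (adjusted p = 0.067) and with the deposited ratios (adjusted p = 0.0705). Averaged over populations Abca1 fell by 0.34 (adjusted p = 0.0211), a call lost without Great Basin creosote 3 (adjusted p = 0.0579), Great Basin juniper 4 (0.0592) or Mojave juniper 1 (0.0674) and under 4 of 12 other alternatives (up to 0.0605).

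Abca2, a lysosomal lipid transporter best known from brain, was called only when the populations were averaged. Its ratios were -0.02, -0.46, -0.31 and 0.30 in Great Basin creosote and 0.16, 0.12, 0.19 and 0.09 in Great Basin juniper. Values in Mojave were -0.91, -0.39, -0.72 and -0.52 on creosote and 0.08, -0.16, -0.10 and -0.36 on juniper. Great Basin creosote animals fell on both sides of the juniper animals, and the Mojave groups did not overlap. The averaged difference was -0.38 (limma adjusted p = 0.0348), with -0.26 ± 0.15 in Great Basin and -0.49 ± 0.16 in Mojave (adjusted p = 0.0702). The averaged call was lost without 9 of the 16 animals, namely Great Basin creosote 3, Great Basin juniper 1, 3 and 4, Mojave creosote 1 and 3, and Mojave juniper 1, 2 and 3 (adjusted p up to 0.102). It was lost as well under 7 of 12 other alternatives (up to 0.165), among them the replicate number as a block (0.065).

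Abca3, the surfactant lipid transporter of lung lamellar bodies, was the gene whose probes differed most. The brightest of its 3 kept probes differed by -0.10 ± 0.08 in Great Basin and 0.07 ± 0.08 in Mojave. Another probe gave -0.12 and 0.10. The remaining probe, A_43_P16685, read -0.94, -0.61, -0.45 and -0.28 in Mojave creosote and 0.17, 0.25, 0.25 and 0.19 in Mojave juniper. These did not overlap, and the difference was -0.83 ± 0.13 (limma adjusted p = 0.00108 in the fit over all kept probes), with -0.30 ± 0.12 in Great Basin (adjusted p = 0.196). Which of the probes follows the woodrat Abca3 transcript was not tested. The gene enters the counts by its brightest probe, as not called. For Abcc3 the further probe differed by -0.43 ± 0.22 in Great Basin and -0.71 ± 0.23 in Mojave. Both Abcc3 probes therefore fell on the same side in Mojave, and the further one missed the threshold (adjusted p = 0.0695). Averaged over populations, in the limma fit over all kept probes, the further one passed (-0.57 ± 0.16, adjusted p = 0.0287). The brightest did not (-0.38 ± 0.14, adjusted p = 0.0867).

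**Figure D4:**
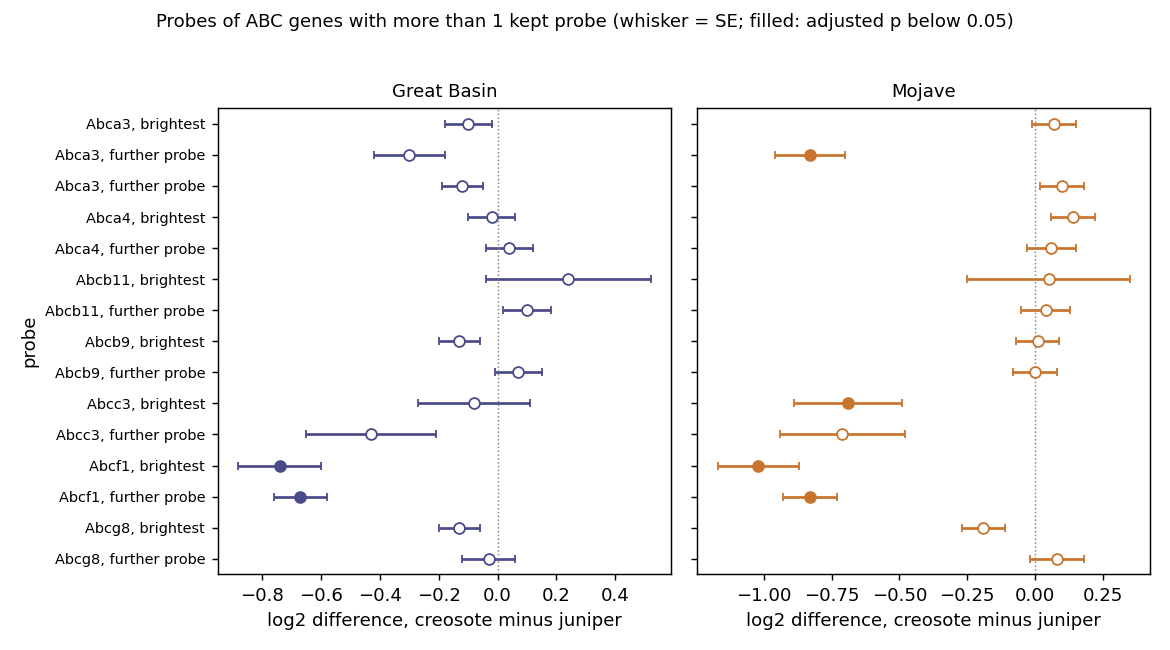
Diet difference (log2, creosote minus juniper, x axis) of each kept probe of the 7 ABC genes with more than 1 (y axis), in Great Basin (left) and Mojave (right), with the SE as whiskers. Both Abcf1 probes are filled in both panels, and 1 of the 3 Abca3 probes stands apart from the other 2 in Mojave, at -0.83.

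Of the 5 genes of the mitochondrion and lysosome, 1 was lower on creosote in each population, and they were different genes. Abcb10 is a transporter of the inner mitochondrial membrane needed for haem synthesis in erythroid cells. Its ratios were -0.08, -0.17, -0.09 and -0.65 in Great Basin creosote and -0.09, 0.04, 0.31 and 0.13 in Great Basin juniper. In Mojave they were -0.28, -0.35, -0.52 and -0.42 on creosote and 0.03, 0.07, 0.04 and 0.36 on juniper. The Great Basin groups overlapped, at -0.08 and -0.09, and the Mojave groups did not overlap. Abcb10 fell by 0.57 ± 0.13 in Mojave (limma adjusted p = 0.012, 1.48-fold) and by 0.46 ± 0.09 averaged over populations (adjusted p = 0.00294), and was -0.35 ± 0.12 in Great Basin (adjusted p = 0.132). The creosote animal was the lower one on 4 of 4 slides in each population. The Mojave difference was -0.78 with an offset of 16, -1.22 in the processed signals and -1.21 in the deposited ratios, so its size depends on how the signals are processed. The Mojave call was kept without each animal and lost in the animal channel alone (adjusted p = 0.0852) and without slide 1 (adjusted p = 0.0759). The averaged call held under all 28 alternatives.

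Abcb6 transports porphyrins and lies in the mitochondrial outer membrane and in lysosomes. Its ratios were -0.18, 0.04, -0.13 and -0.19 in Great Basin creosote and 0.05, 0.26, 0.29 and 0.18 in Great Basin juniper. The Mojave animals gave 0.05, 0.31, 0.29 and 0.24 on creosote and 0.03, 0.25, 0.08 and 0.13 on juniper. Great Basin creosote was the low group, and its animals lay below those of every other group, except that Great Basin creosote 2 (0.04) lay above Mojave juniper 1 (0.03). Abcb6 fell by 0.31 ± 0.08 in Great Basin (limma adjusted p = 0.0352, 1.24-fold) and differed by 0.06 ± 0.08 in Mojave. On the slides the difference was below 0 on 4 of 4 in Great Basin and above 0 on 4 of 4 in Mojave, and the interaction was 0.37 ± 0.11 (unadjusted p = 0.00537, adjusted p = 0.181). Leaving out any of 6 animals ended the Great Basin call, namely creosote 1, 3 or 4 or juniper 2, 3 or 4 of that population, with adjusted p values up to 0.116. It was lost as well with an offset of 16 (0.0932), processed signals (0.321), the deposited ratios (0.208), males alone (0.357) and without slide 1 (0.274).

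Abcb8 and Abcb9 of that role were not called. Abcb8 was above background on 0 of 4 arrays in Great Basin creosote and 1 of 4 in Great Basin juniper. Great Basin creosote has therefore only a bound for Abcb8. The tested Abcb9 probe was above background on 9 of 16 arrays. Of 9 tested genes of iron-sulphur clusters and haem, 3 were lower in Great Basin, beside 1.95% of all genes. In Mojave 3 were lower and 1 higher, beside 5.73% and 3.83% of all genes. Lower in both populations were, among others, Alas1, the first and rate-limiting enzyme of haem synthesis (-1.55 ± 0.35 and -1.29 ± 0.38) and ferrochelatase, Fech (-0.46 and -0.63). Alad was the higher one (0.35).

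Abcd2 and Abcd3, transporters of the peroxisomal membrane, bring acyl-CoA into the peroxisome for beta-oxidation. They were not called by diet, with differences of -0.06 and -0.13 in Great Basin and 0.04 and 0.12 in Mojave. In the animal channel alone the Great Basin difference of Abcd3 was -0.68 and passed the test (adjusted p = 0.0391). The Abcd3 probe was above background on 12 of 16 arrays, and on 2 of 4 in Great Basin creosote. Of 11 genes of peroxisomal import and beta-oxidation, 0 were called in Great Basin, beside 4.03% of all genes. In Mojave 4 were lower on creosote, beside 5.73% of all genes. These 4 were the import receptors Pex5 (-0.98) and Pex19 (-0.55) and the beta-oxidation enzymes Hsd17b4 (-0.70) and Ehhadh (-0.32). Averaged over populations 1 of the 11 was higher and 5 were lower, beside 5.72% and 6.38% of all genes.

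Between the populations 0 of 38 ABC genes passed the test. On creosote 0.0717% of all genes did, on juniper 0.0113%, and averaged over diets 0.034%. By limma, 11 of 38 had an unadjusted p under 0.05 on creosote, beside 14.1% of all genes, and 2 of 38 on juniper, beside 8.03%. Averaged over diets 5 of 38 had one, beside 9.31% of all genes. The populations did not overlap in 6 of 38 genes on creosote, beside 6.02% of all genes, and in 3 of 38 on juniper, beside 6.85%. The creosote comparison sets 4 males against 2 males and 2 females, and so does the Mojave diet comparison. The sex term adjusts for this imbalance. It is estimated from the remaining groups only, because Mojave creosote had no females, and a sex effect particular to that group cannot be seen. For sex itself 1 of 26486 genes was called and 0 ABC genes.

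Abcg5, with Abcg8 the exporter of cholesterol and plant sterols into bile, had the largest population difference on creosote and the second largest on juniper. Its ratios were 0.10, 0.29, 0.60 and 0.14 in Great Basin creosote and 0.09, 0.19, 0.08 and 0.38 in Great Basin juniper. In Mojave they were -0.63, -0.28, 0.05 and -0.28 on creosote and -0.33, -0.25, -0.44 and -0.21 on juniper. All 8 Mojave animals lay below all 8 Great Basin animals. Great Basin arrays held positions 1 and 4 and Mojave arrays 2 and 3, so population and position cannot be told apart here. The difference, Mojave minus Great Basin, was -0.56 ± 0.14 on creosote (limma adjusted p = 0.114), -0.49 ± 0.13 on juniper (adjusted p = 0.293) and -0.52 ± 0.10 averaged over diets (unadjusted p = 8.68e-05, adjusted p = 0.0735), and missed the threshold in each. On the slides it was -0.88 to -0.05 and -0.59 to -0.42, below 0 on 4 of 4 for each diet. Over the 28 alternatives the averaged difference ran from -0.85 to -0.47 with adjusted p values from 0.0283 to 0.559. It passed without the sex term (-0.53, adjusted p = 0.0323) and without Mojave creosote 3 (-0.58, adjusted p = 0.0283). On creosote the same 2 changes gave adjusted p values of 0.0472 and 0.0423. The partner gene Abcg8 differed by -0.09 ± 0.08 on creosote and -0.03 ± 0.07 on juniper, with intervals of -0.26 to 0.09 and -0.19 to 0.12. A further Abcg8 probe gave 0.13 ± 0.10 and 0.02 ± 0.09. Whether the rat probe of Abcg5 matches the transcripts of both populations equally was not tested.

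Abca2 was lower in Mojave by -0.50 ± 0.16 on creosote (adjusted p = 0.179) and -0.28 ± 0.15 on juniper, where the populations did not overlap. Abcb6 was higher in Mojave on creosote by 0.30 ± 0.08 (adjusted p = 0.136), without overlap, and differed by -0.07 on juniper. Abce1 had a population difference of -0.44 on creosote and 0.53 on juniper (adjusted p = 0.355), and Abcc3 of -0.45 and 0.15. The further Abcc3 probe gave -0.56 ± 0.23 and -0.28 ± 0.22, so the sign on juniper differed between the probes. Abcf1, which had the largest diet difference, differed between populations by -0.05 ± 0.15 on creosote and 0.23 ± 0.14 on juniper. For Abcf2 the population difference was -0.31 ± 0.12 on creosote (limma adjusted p = 0.258) and 0.21 ± 0.11 on juniper (adjusted p = 0.679). None of these was called.

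**Figure D5:**
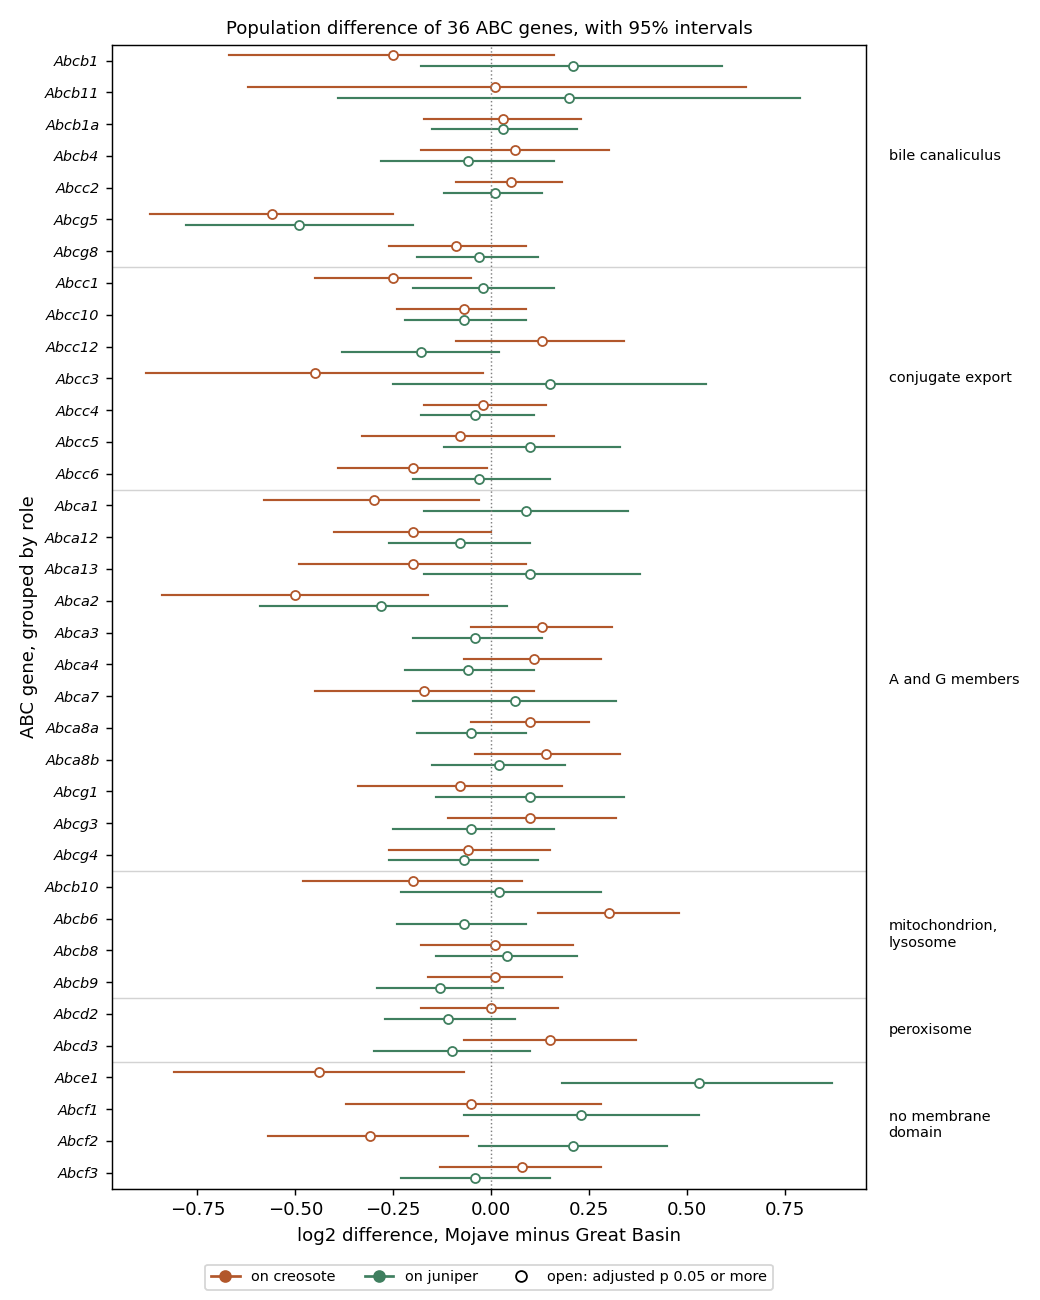
Population difference (log2, Mojave minus Great Basin, x axis) of 36 of the 38 tested ABC genes grouped by role (y axis), with 95% intervals from limma, on creosote (brown) and juniper (green). No point is filled, because 0 of 38 had an adjusted p below 0.05; Abcg5 lies left of 0 on both diets, at -0.56 and -0.49.

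The interaction asks whether the diet difference depended on the population. It was called for 0 of 38 ABC genes and for 0% of all genes tested by limma. An unadjusted p under 0.05 was found for 7 of 38, beside 13% of all genes. Among them were Abce1 (-0.96), Abcc3 (-0.61), Abcf2 (-0.52), Abca1 (-0.39), Abcb6 (0.37) and Abcc12 (0.31), where a value below 0 means a lower diet difference in Mojave. A call in 1 population and not the other is therefore not shown to differ between them for any ABC gene.

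Other genes of ABC biology were set beside the family. Of 20 tested receptors and factors known to control ABC genes, 2 were higher on creosote in Great Basin, beside 2.08% of all genes. In Mojave 3 were higher, beside 3.83% of all genes, and none was lower in either population. The higher ones were Nr1i3, the constitutive androstane receptor CAR (0.67 ± 0.11 and 0.82 ± 0.11), the lipogenic factor Srebf1 (1.45 and 1.29) and, in Mojave, the glucocorticoid receptor Nr3c1 (0.49). The pregnane X receptor gene Nr1i2 (0.30 and 0.11), the bile acid receptor gene Nr1h4 (-0.03 and -0.15) and the liver X receptor gene Nr1h3 (0.02 and 0.43) were not called. Of 9 genes for canalicular flippases and scaffold proteins, 1 was higher and 1 lower in each population. Radixin, Rdx, which anchors Abcc2 at the canaliculus, was higher (0.53 and 0.59), and the scaffold protein gene Pdzk1 was lower (-0.90 ± 0.17 and -0.84 ± 0.18). Averaged over populations, 3 receptors and factors were higher, and 2 flippase and scaffold genes were higher and 1 lower.

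Of 11 tested carriers for sinusoidal uptake and organic cation exit, 0 were called in Great Basin and 1 was lower in Mojave, the carnitine carrier Slc22a5 (-0.86). Of 13 HDL and cholesterol partners, 1 was higher in each population, Apoa2 in Great Basin (0.33) and hepatic lipase, Lipc, in Mojave (1.10). The 3 tested ABC genes filed under other symbols, Tap1, Tap2 and Cftr, were not called in any comparison. The 16 tested ABC genes that were neither called, nor among the 5 largest differences of a simple comparison, nor canalicular or conjugate exporters ranged from -0.23 to 0.21 in the Great Basin diet difference and from -0.39 to 0.17 in the Mojave one, with 0 called in either. Among these 16, Abca8a differed by 0.17 in Mojave and by 1.66 in the deposited ratios (adjusted p = 0.0459). Its probe was above background on only 8 arrays, 3 of Mojave creosote and 2 of Mojave juniper among them. The part of dim signals in the size of this difference was not tested. Abca13 differed by -0.39 in Mojave and passed without Mojave creosote 3 (-0.48, adjusted p = 0.0421) or Mojave juniper 2 (-0.53, adjusted p = 0.0397). Its ratios were -0.17, -0.07, 0.21 and -0.16 in Mojave creosote and 0.72, 0.06, -0.15 and 0.03 in Mojave juniper, which overlapped. The means of these groups were -0.05 and 0.17, and the slide differences ran from -0.89 to 0.36. The sex term put males 0.35 above females, which was not called. The Abca13 probe was above background on 13 arrays.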

How the data were processed

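Liver RNA of each animal (500 ng) was labelled with Cy5 and an equimolar pool of the 16 livers with Cy3, without a dye swap, per the labels. The deposited scanner files give spot signals and backgrounds as linear intensity, from Agilent Feature Extraction 9.1.3.1 per the submitters' processing notes. The deposited log2 ratios of animal over pool, an alternative here, equalled the processed signals' ratios within 5e-10, with array medians of -0.179 to -0.008.

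Signals were corrected by normexp (offset 50, which draws dim ratios towards 0) and normalised by loess in R 4.3.3 with limma 3.58.1. Only the limma fit, and not these steps, was tested on simulated data. Probes above background on at least 4 of 16 arrays, with at least 2 usable values per group, were kept, and the brightest stood for its gene. One model of 4 groups and sex (11 residual degrees of freedom) was tested two-sided in 7 comparisons, with Benjamini-Hochberg adjustment over 26486 genes. The 4 animals per group limit the precision.

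The members and lists were chosen with earlier results of these data known. Described singly were ABC genes called in any comparison, the 5 largest differences in each simple comparison, all tested canalicular and conjugate exporters, and called genes of other lists. Nr1i2, Nr1h4, Nr1h3, Tap1, Tap2, Cftr, Abca3, Abcb8, Abcb9, Abcd2, Abcd3 and Abcf3 were added after their values were seen. Alternatives were processed signals, offset 16, the animal channel alone, deposited ratios, other filters and probe rules, no sex term, males alone, slide or replicate blocks, and leaving out slide 1 or each animal. Some genes are not reported here singly.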

Additional observations from a re-analysis of the deposited data

Results flagged for a closer look

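In 4 of 88 groups of 4 animals among the 22 named ABC genes, 1 animal lay far from the other 3 by Dixon's test. Chance flags about 1 group in 20, which is 4.4 of 88. For Abcb10, Great Basin creosote 4 read -0.65, against -0.17 for the nearest animal, and Mojave juniper 4 read 0.36, against 0.07. For Abcb1a, Mojave juniper 3 read -0.14, against 0.04. For Abcc1, Mojave juniper 4 read -0.16, against 0.02. The Abcb10 diet difference in Mojave kept its call without each animal in turn.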

How the results depend on the processing

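No called ABC gene changed direction under any of the 28 alternatives. Counts of ABC genes are followed by the count over all genes in the same fit. In Great Basin the diet calls were 3 (1068), and became 0 (558) with processed signals, 0 (153) in males alone, 0 (399) without slide 1, 1 (947) with an offset of 16 and 1 (710) with the deposited ratios. The Mojave diet calls were 7 (2531) and became 3 (1299) with processed signals, 3 (1083) in the animal channel alone, 3 (1078) in males alone and 4 (1714) without slide 1. Averaged over populations they were 7 (3206) and became 4 (2405) with processed signals, 3 (1255) in males alone and 2 (2109) without slide 1. Between populations they were 0, and without the sex term 2 (283) on creosote, Abcg5 among them, and 1 (51) averaged over diets, Abcg5. The cause was not tested, except that males alone and the fits without slide 1 rest on fewer arrays. Leaving out 1 animal gave 1 to 3 calls in Great Basin (1 when creosote 1 or 3 or juniper 2, 3 or 4 of that population was left out, with 651 to 875 over all genes) and 4 to 7 in Mojave (4, with 1626, when Mojave juniper 1 was left out). It gave 4 to 8 averaged over populations (4, with 2479, when Great Basin juniper 4 was left out), 0 to 2 between populations on creosote (1 without Great Basin creosote 2 or 4, with 105 and 474, and 2 without Mojave creosote 3, with 227) and 0 to 1 averaged over diets (1 without Great Basin creosote 2 or Mojave creosote 3, with 84 and 34). The counts for population on juniper and for the interaction were 0 in every fit.

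Replicate numbers are shared by the groups and do not pair the animals. Correlations of same-numbered animals ran from -0.17 to 0.14 (median -0.03, 24 pairs), and 2 of 16 animals correlated best with their own number. With the replicate number as a block 3 genes were called in Great Basin, 6 in Mojave and 6 averaged over populations. Signal over background limits Abcb8, Abcg3, Abcb1a and Abcc12, which were near background on most arrays, and the 8 untested genes.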
